A study of Rattus norvegicus with 12 samples.

Results

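Type B intercalated cells (IC-B) of the rat kidney were examined as the nuclei that the authors placed in their low-level cluster IC-B, without any further selection. The cluster held 5423 of 217132 nuclei, 2.50% of the dataset, and was 14th in size among 25 low-level clusters. Type B intercalated cells lie in the connecting tubule and the cortical collecting duct. They secrete bicarbonate in exchange for chloride through pendrin, the product of Slc26a4, on the apical side, and take part in chloride reabsorption and in the control of blood pressure. Type A intercalated cells (IC-A) secrete acid through an apical proton pump, and both types sit among the principal cells that reabsorb sodium.

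Kidneys came from male ZSF1 rats (ZSF1-LeprfaLeprcp/Crl), in which the obese form develops diabetes and kidney disease, and nuclei of 12 rats were sequenced, 3 in each of 4 groups. Lean rats (RK1_4, RK3_4 and RK5_4) received neither drug nor vehicle. Untreated obese rats (RK7_4, RK9_4 and RK16_4) received vehicle, the sGCact group (RK43_4, RK45_4 and RK46_4) received the soluble guanylate cyclase activator BAY 1101042 (Runcaciguat) in 2 doses of 3 mg/kg per day, and the sGCstim group (RK57_4, RK58_4 and RK61_4) received the soluble guanylate cyclase stimulator BAY 1165747 in 1 dose of 3 mg/kg per day. Dosing began at 13 to 14 weeks of age and lasted 12 weeks, so that kidneys were taken at 25 to 26 weeks, and all rats had the same high energy chow. Lean and untreated obese rats thus differed in vehicle as well as in leptin receptor genotype, and the drugs differed in the number of doses a day, and these cannot be told apart. Rats of a group were taken as separate animals, drawn from 6 lean rats and 10 rats per obese group in the study.

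For each nucleus the data give the rat, the number of transcript molecules (UMIs, counted by their molecular tags) and of genes with a UMI, the percentage of UMIs on mitochondrial genes, S and G2M phase scores, and the names of its cluster and types. Between 10488 and 43484 nuclei per rat were retained, and all 12 rats were above the 10000 nuclei that the protocol states were loaded. Expression per gene was not analysed here, so the label IC-B could not be checked against Slc26a4, its defining marker. All 5423 nuclei had IC as high-level type and IC-B as intermediate type, and 0 nuclei of the intermediate type IC-B lay in another cluster. In the deposited 2-dimensional map, 99.6% of the 15 nearest neighbors of IC-B nuclei were IC-B nuclei, 0.263% were of the proximal tubule cluster PTnov1 and 0.0639% were IC-A. This share was between 99.3% and 99.8% in each rat, and for 7 IC-B nuclei most neighbors lay outside the cluster. The cluster and the map come from the same expression values, so this describes how compact the cluster was and is no independent check of the label. The IC-B nuclei of 2 rats shared 3 cell barcodes, and 314 IC-B barcodes recurred in any cluster of another rat.

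IC-B nuclei were rich in RNA and poor in mitochondrial UMIs among the clusters. They had a median of 1997 UMIs (range 489 to 5451), 7th among the 25 clusters, and 1194 genes (range 374 to 2355), 5th among them. These ranks pool nuclei of rats that differed in depth. Within single rats, among the 23 to 25 clusters with at least 10 nuclei, IC-B was between 3rd and 8th by median UMIs in 11 rats and 19th in RK61_4. IC-B nuclei together held 11496789 UMIs, 3.24% of all UMIs in the dataset against 2.50% of its nuclei. Their median mitochondrial percentage was 0.0455%, 21st among the clusters, and 41.5% of them had no mitochondrial UMI. Only 417 of them, 7.69%, exceeded 1% mitochondrial UMIs, and the highest value was 14.6%. Some nearby clusters shared these traits. Median UMIs and mitochondrial percentages were 2389 and 0% in the cluster IC-A/CD-Trans and 2163.5 and 0% in the distal and connecting tubule cluster. They were 1999 and 0.0388% in the distal convoluted tubule cluster. IC-A (1652, 0.0689%) and the connecting tubule and principal cell cluster (1700, 0.0676%) had fewer UMIs and a higher percentage than IC-B.

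One rat stood apart in this cluster. In the sGCstim rat RK61_4, 127 of 180 IC-B nuclei exceeded 1% mitochondrial UMIs, 70.6% with a 95% Wilson interval of 63.5% to 76.7%. Next came the untreated obese rat RK16_4 with 185 of 811 nuclei (22.8%, 20.1% to 25.8%), and the other rats lay between 0.181% and 6.21%. Intervals on shares of nuclei cover counting error only. The 127 nuclei of RK61_4 had a median of 825 UMIs, 626 genes and 5.08% mitochondrial UMIs, whereas its other 53 IC-B nuclei had 1575 UMIs, 1076 genes and 0.0657%. The 1% cut thus split the IC-B nuclei of RK61_4 into a poorer and a richer part. Nuclei over 1% also had the lower median UMIs in the other rats, except in RK9_4 (2414 against 2409). Examples are 1104 against 1637.5 in RK16_4 and 749 against 2051 in RK46_4. Such nuclei were few in some rats, with 1 each in RK45_4 and RK58_4.

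The neighboring tubule clusters of RK61_4 differed in this. Nuclei over 1% made up 58.5% of its distal convoluted tubule cluster (DCT), which had a median of 1.79% mitochondrial UMIs and 1030 UMIs. They made up 6.05% of its IC-A nuclei, 4.99% of its connecting tubule and principal cell cluster (CNT/PC) and 3.29% of its distal and connecting tubule cluster (DCT/CNT). By median mitochondrial percentage IC-B, at 4.45%, was 5th of the 24 clusters present in this rat, after PTnov1 (6.65%), PST(Spp1+) (5.53%), PCT(Spp1+) (5.39%) and podocytes (Podo, 4.73%). The median UMIs of these clusters in the rat, between 827 and 845, were close to the 825 of its IC-B nuclei over 1%. In the map, IC-B nuclei of RK61_4 had 99.8% IC-B neighbors. Of the neighbors of its nuclei over 1%, 11.1% came from the same rat, against 4.28% for its other IC-B nuclei and a 3.32% share of RK61_4 in all IC-B nuclei. Group contrasts that include RK61_4 are given below with and without this rat.

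**Figure D1:**
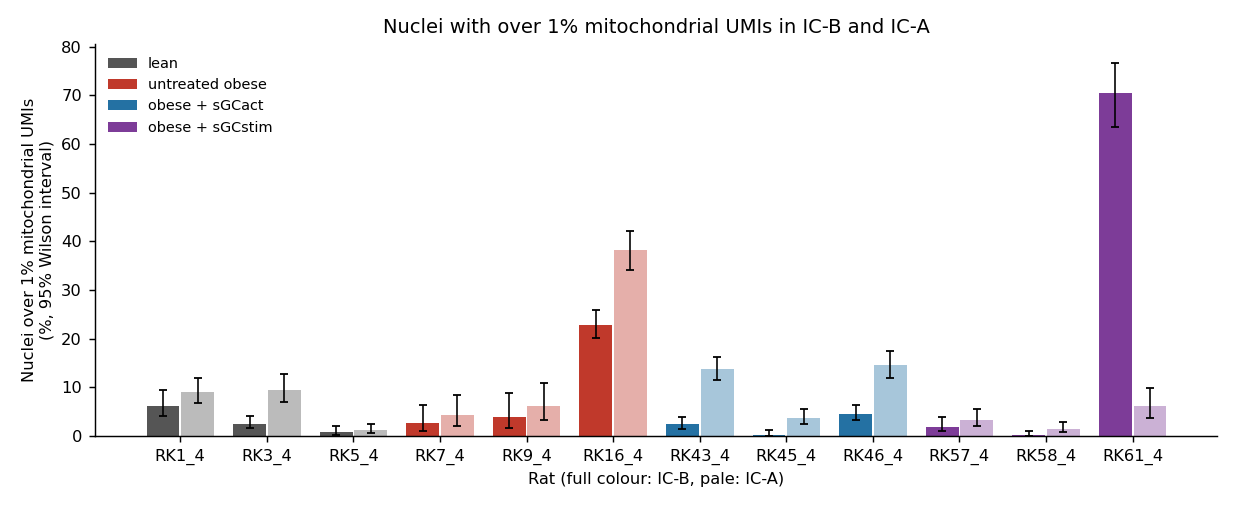
Share of nuclei with over 1% mitochondrial UMIs (y axis, %, from 0) among IC-B nuclei (full colour) and IC-A nuclei (pale) in each of the 12 rats (x axis), with 95% Wilson intervals and colours for the 4 groups. RK61_4 stands at 70.6% in IC-B against 6.05% in IC-A, and in the other 11 rats the IC-B bar is the shorter one.

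IC-B nuclei had a smaller mitochondrial share than IC-A nuclei in the other rats. The share of nuclei over 1% was smaller in IC-B than in IC-A in 11 of 12 rats, for example 22.8% against 38.1% in RK16_4, 2.42% against 13.7% in RK43_4 and 4.53% against 14.5% in RK46_4, and RK61_4 was the exception. The same 11 rats had the smaller summed mitochondrial percentage in IC-B. Cluster against cluster is a description here, because the nuclei were clustered on their expression.

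The share of IC-B among all nuclei of a rat varied 23.8-fold over the 12 rats. It was 1.93%, 3.92% and 2.58% in the lean rats RK1_4, RK3_4 and RK5_4, and 1.48%, 0.292% and 6.18% in the untreated obese rats RK7_4, RK9_4 and RK16_4. It was 3.11%, 2.22% and 6.94% in the sGCact rats RK43_4, RK45_4 and RK46_4, and 3.05%, 4.50% and 0.773% in the sGCstim rats RK57_4, RK58_4 and RK61_4. The groups overlapped, and untreated obese rats alone spanned 21.2-fold. The rats with the lowest IC-B shares, RK9_4, RK61_4 and RK7_4, were those with the highest shares of proximal tubule nuclei, 92.1%, 70.6% and 75.8%, and the rats with the highest IC-B shares, RK46_4 and RK16_4, had the lowest proximal shares, 32.6% and 37.8%. Shares of one total are tied to each other, and fewer IC-B cells in the kidney and more nuclei of another segment in the sample cannot be told apart.

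No contrast of the IC-B share of all nuclei passed the test. Log odds of the share were compared by limma over all 25 clusters with Benjamini-Hochberg adjustment, and exact two-sided permutation tests of the shares, which cannot go below p = 0.1 for 3 rats against 3, stand beside them. Untreated obese rats had 2.65% ± 3.11 (SD, n = 3) against 2.81% ± 1.01 (SD, n = 3) in lean rats, an odds ratio of 0.515 with a 95% interval of 0.107 to 2.49 (limma adjusted p = 0.530, exact permutation p = 0.9). In this contrast 12% of the clusters passed, and IC-B was not among them. The sGCact rats had 4.09% ± 2.51 (SD, n = 3), an odds ratio of 2.65 against untreated obese rats (0.550 to 12.8, limma adjusted p = 0.496), with the treated rat higher in 7 of 9 pairs of rats. The sGCstim rats had 2.77% ± 1.88 (SD, n = 3), an odds ratio of 1.58 (0.328 to 7.65, limma adjusted p = 0.792). Both drug contrasts share the untreated obese rats, and 0% of the clusters passed in either or between the drugs, where the odds ratio was 1.68 (0.347 to 8.09, limma adjusted p = 0.964). All 9 obese rats against the 3 lean rats gave 0.831 (0.230 to 3.01, limma adjusted p = 0.977) with 4% of the clusters passing. Without RK61_4 the change in log odds was 0.99 in place of 0.46 for sGCstim against untreated obese rats (limma adjusted p = 0.557) −0.02 in place of 0.52 between the drugs and −0.00789 in place of −0.185 for all obese against lean rats (limma adjusted p = 0.993). Without RK16_4, the sGCact change was 1.74 in place of 0.98 (limma adjusted p = 0.0524) and that of untreated obese against lean rats −1.43 in place of −0.66 (limma adjusted p = 0.0814). Without RK9_4, the untreated obese rat with the lowest share, the sGCact change was 0.185 (limma adjusted p = 0.939), that of untreated obese against lean rats was 0.126 (limma adjusted p = 0.955) and that of sGCstim was −0.330, so the signs of the latter pair changed. The intervals are wide in every contrast, and these data do not show that the shares were alike.

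Set against the cells around them, IC-B nuclei were more even over the 12 rats, mainly among the obese rats. Among intercalated, DCT, DCT/CNT and CNT/PC nuclei together, which are the distal and collecting segments next to them, IC-B made up 12.0%, 20.2% and 12.6% in the lean rats and 16.0%, 11.7% and 19.6% in the untreated obese rats. The sGCact rats had 13.8%, 13.9% and 15.8%, and the sGCstim rats 12.5%, 12.5% and 11.5%. The 12 rats thus spanned 1.75-fold on this denominator, against 23.8-fold of all nuclei and 3.92-fold of the nuclei outside the proximal tubule. The obese rats spanned 1.70-fold against 23.8-fold of all nuclei. The lean rats changed little, with 1.69-fold against 2.03-fold. IC-B nuclei are themselves part of this denominator. RK61_4 was the lowest, and RK3_4 and RK16_4 were the highest. This denominator was chosen after the data were seen, and on it the odds ratios of the 5 contrasts lay between 0.756 for sGCstim against untreated obese rats (0.498 to 1.15) and 1.22 between the drugs (0.802 to 1.85), with limma adjusted p over its 6 clusters of 0.523 or more. Without RK61_4 the changes in log odds on it were −0.250 in place of −0.280 for sGCstim against untreated obese rats (limma adjusted p = 0.443), 0.168 in place of 0.198 between the drugs and −0.0403 in place of −0.0503 for all obese against lean rats. For each 100 CNT/PC nuclei there were between 39.0 and 91.5 IC-B nuclei, again with RK61_4 at the low and RK16_4 at the high end.

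**Figure D2:**
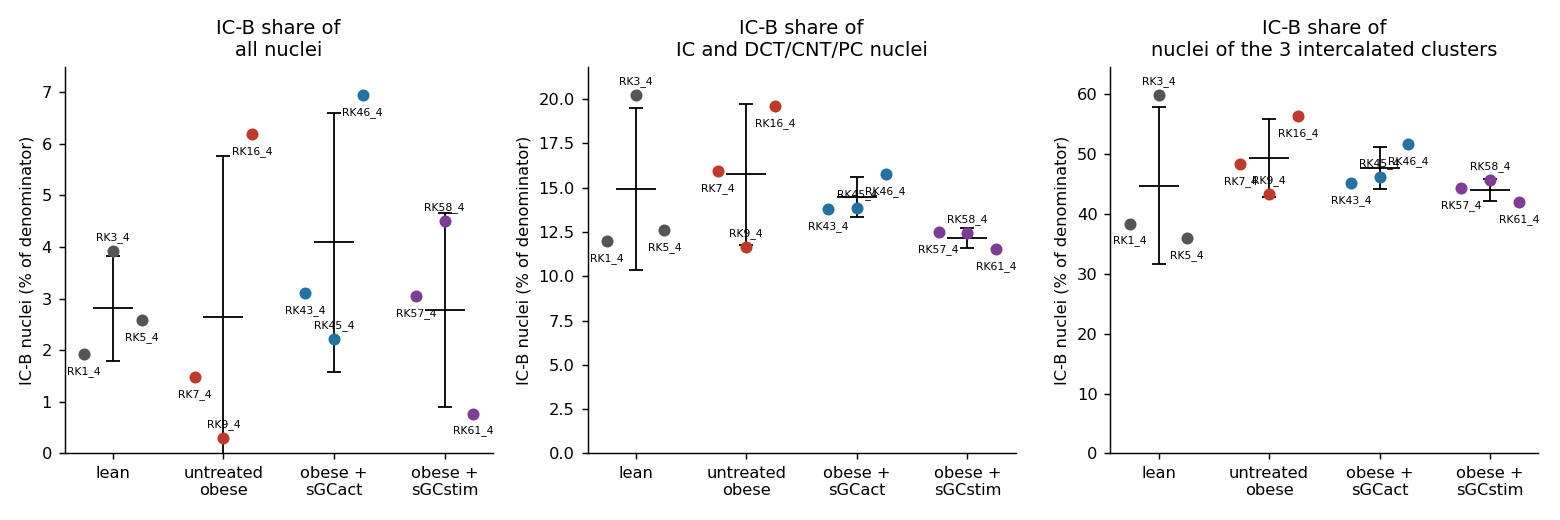
IC-B nuclei in % (y axes, from 0) of all nuclei, of intercalated and DCT/CNT/PC nuclei and of the 3 intercalated clusters, in the 4 groups (x axes). Points are rats, horizontal lines are means and bars are SD (n = 3), the lower bar of untreated obese rats in the left panel being truncated at 0; the spread over rats is 23.8-fold on the left and 1.75-fold and 1.66-fold in the other panels.

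Within the intercalated nuclei, IC-B and IC-A were close to balance when all rats were pooled, but not in each rat. The 3 intercalated clusters held 11500 nuclei, of which 47.2% were IC-B, 49.7% IC-A and the other 363 of the cluster IC-A/CD-Trans. IC-B made up 38.4%, 59.8% and 35.9% of them in the lean rats RK1_4, RK3_4 and RK5_4, and 48.3%, 43.3% and 56.3% in the untreated obese rats. The sGCact rats had 45.2%, 46.1% and 51.7%, and the sGCstim rats 44.2%, 45.7% and 42.0%. IC-B outnumbered IC-A in 3 rats of 3 different groups, by 1.56 to 1 in RK3_4, 1.45 to 1 in RK16_4 and 1.20 to 1 in RK46_4, and the lowest ratio was 0.609 in the lean rat RK5_4. Lean rats therefore held both the highest and the lowest value.

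The balance of IC-B and IC-A did not pass the test in any contrast. Untreated obese rats had 49.3% ± 6.55 (SD, n = 3) against 44.7% ± 13.1 (SD, n = 3) in lean rats, an odds ratio of 1.21 with an interval of 0.679 to 2.16 (limma over 23 clusters, adjusted p = 0.611, exact permutation p = 0.6). Of the clusters, 8.7% passed here, as in the contrast of all obese rats with lean rats, where IC-B had an odds ratio of 1.10 (0.687 to 1.77, limma adjusted p = 0.799). The sGCact rats had 47.7% ± 3.50 (SD, n = 3), an odds ratio of 0.935 against untreated obese rats (0.525 to 1.67, limma adjusted p = 0.917). The sGCstim rats had 44.0% ± 1.90 (SD, n = 3), an odds ratio of 0.807 (0.453 to 1.44, limma adjusted p = 0.853). In the drug contrasts 0% of the clusters passed, also between the drugs, where the odds ratio was 1.16 (0.651 to 2.07, limma adjusted p = 0.833). Without RK61_4 the changes in log odds were −0.17 in place of −0.21 for sGCstim against untreated obese rats 0.11 in place of 0.15 between the drugs and 0.110 in place of 0.0968 for all obese against lean rats. Without RK3_4 untreated obese rats differed from lean rats by 0.50 in place of 0.19 (limma adjusted p = 0.142). When nuclei over 1% mitochondrial UMIs were left out, RK61_4 had 18.5% IC-B of its intercalated nuclei in place of 42.0%, and the sGCstim change was −0.66 (limma adjusted p = 0.649).

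**Figure D3:**
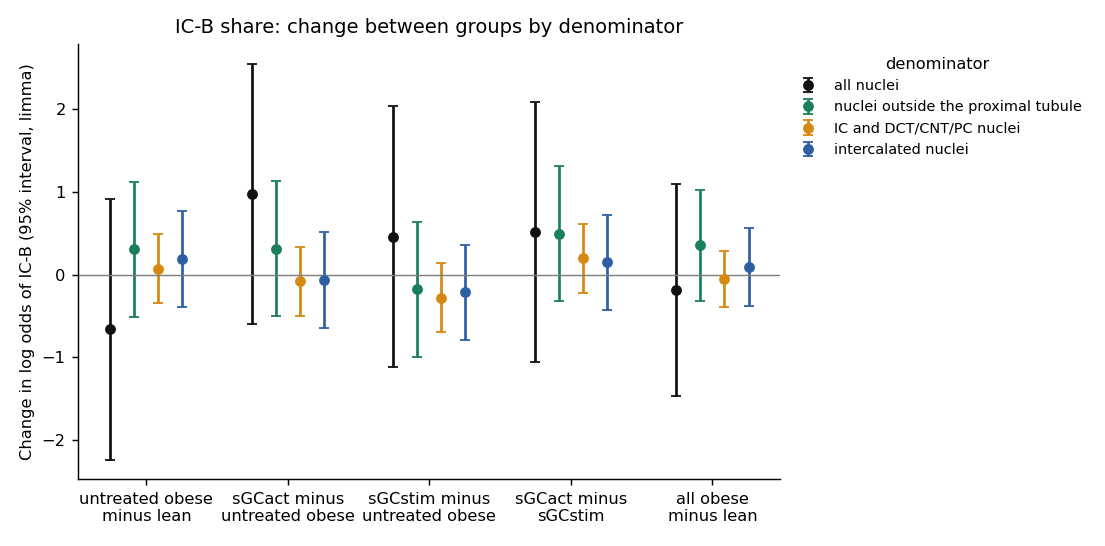
Change in the log odds of IC-B (y axis, natural log, limma estimate with 95% interval) for 5 contrasts (x axis) and 4 denominators (colours). Every interval includes 0, and the intervals narrow from all nuclei (−2.24 to 0.91 for untreated obese minus lean) to intercalated and DCT/CNT/PC nuclei (−0.35 to 0.49).

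IC-B nuclei carried more UMIs than IC-A nuclei of the same rat in 11 of 12 rats. Median UMIs per IC-B nucleus were 3394, 2586.5 and 1923 in the lean rats RK1_4, RK3_4 and RK5_4 and 1413, 2412 and 1518 in the untreated obese rats RK7_4, RK9_4 and RK16_4. They were 2170.5, 2098 and 1991 in the sGCact rats RK43_4, RK45_4 and RK46_4, and 1899, 1936 and 852.5 in the sGCstim rats RK57_4, RK58_4 and RK61_4. IC-A nuclei had between 1349 in RK16_4 and 3117 in RK1_4. The exception was RK61_4, where IC-B nuclei had 852.5 against 1662 in IC-A. Without the nuclei over 1% mitochondrial UMIs, RK61_4 still had fewer UMIs in IC-B (1575) than in IC-A (1705). Median genes per nucleus were higher in IC-B than in IC-A in 10 of 12 rats, RK7_4 and RK61_4 being the exceptions.

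UMIs per IC-B nucleus were compared as log2 of the median by limma over the 22 clusters with at least 10 nuclei in every rat. The mean over rats was 2635 ± 737 in the lean group, 1781 ± 549 in the untreated obese group, 2087 ± 90.3 under sGCact and 1563 ± 615 under sGCstim (each SD, n = 3). Untreated obese rats were at 0.674-fold the lean level (0.431 to 1.06, limma adjusted p = 0.205, exact permutation p = 0.2), in a contrast in which 18.2% of the clusters passed. All obese rats were at 0.679-fold the lean level (0.471 to 0.979, limma adjusted p = 0.108), and the obese rat was the higher one in 5 of 27 pairs. The exact permutation test of the latter gave p = 0.0727, where 9 rats against 3 can reach 0.00909, and again 18.2% of the clusters passed without IC-B among them. Without RK5_4, the lean rat with the lowest level, the log2 difference was −0.77 in place of −0.56 and passed (limma adjusted p = 0.0366), and without RK61_4 it was −0.43 (limma adjusted p = 0.197). Divided by the median over all nuclei of the same rat outside IC-B, the difference had the opposite sign, 0.31 on the log2 scale (limma adjusted p = 0.410). That median also depends on which clusters the other nuclei belong to. The ratio was 2.68 in RK9_4, with 92.1% proximal tubule nuclei, and 1.10 in RK16_4, with 37.8%. RK61_4, with 70.6%, went the other way, and the cause of the opposite sign was not tested. The level of IC-B relative to other nuclei was between 1.14 and 1.25 in lean rats and between 0.859 in RK61_4 and 2.68 in RK9_4 in obese rats. The lower level in untreated obese rats was shared by IC-A nuclei, with 2289 ± 743 UMIs in lean and 1603 ± 431 in untreated obese rats (each SD, n = 3).

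Neither drug passed for UMIs per IC-B nucleus. Against untreated obese rats the log2 difference was 0.27 for sGCact (−0.38 to 0.92, limma adjusted p = 0.823, 4.55% of the clusters passing) and −0.24 for sGCstim (−0.89 to 0.41, limma adjusted p = 0.961, 0% passing). Without RK61_4 the latter was 0.15. The sGCact difference was 0.124 without RK7_4 (limma adjusted p = 0.954) and 0.510 without RK9_4 (limma adjusted p = 0.793). The 3 sGCact rats were all above the 3 sGCstim rats, with a log2 difference of 0.51 (−0.14 to 1.16, limma adjusted p = 0.734) and the lowest exact permutation p that 3 rats against 3 can give, 0.1. Complete separation in that direction was seen in 22.7% of the clusters, and the difference was 0.12 without RK61_4.

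The ratio of IC-B to IC-A UMIs of the same rat separated the sGCact rats from the untreated obese rats. It was 1.09, 1.25 and 1.15 in the lean rats, 1.04, 1.15 and 1.13 in the untreated obese rats, 1.30, 1.27 and 1.34 in the sGCact rats and 1.32, 1.34 and 0.513 in the sGCstim rats. Each sGCact rat was above each untreated obese rat and each lean rat, and so were RK57_4 and RK58_4, while RK61_4 was the lowest of all. RK45_4 (1.27) was close to the lean rat RK3_4 (1.25). Separation from lean rats was not counted over the clusters, nor was that of RK57_4 and RK58_4 with RK61_4 set aside. The log2 difference between sGCact and untreated obese rats was 0.24, with the sGCact rat higher in 9 of 9 pairs and an exact permutation p of 0.1, the lowest possible, or 0.5 after adjustment over 5 contrasts. Such separation was found for 14.3% of the clusters set against IC-A in the same way. The difference was 0.21 without the nuclei over 1% mitochondrial UMIs and between 0.197 and 0.268 when 1 rat was left out. For sGCstim the log2 difference was −0.19 (exact permutation p = 1) and 0.27 without RK61_4. Between the drugs it was 0.43 (exact permutation p = 0.8) and −0.0282 without RK61_4. For all obese against lean rats it was −0.0544 (exact permutation p = 0.764) and 0.0858 without RK61_4. For untreated obese against lean rats it was −0.0710 (exact permutation p = 0.5).

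**Figure D4:**
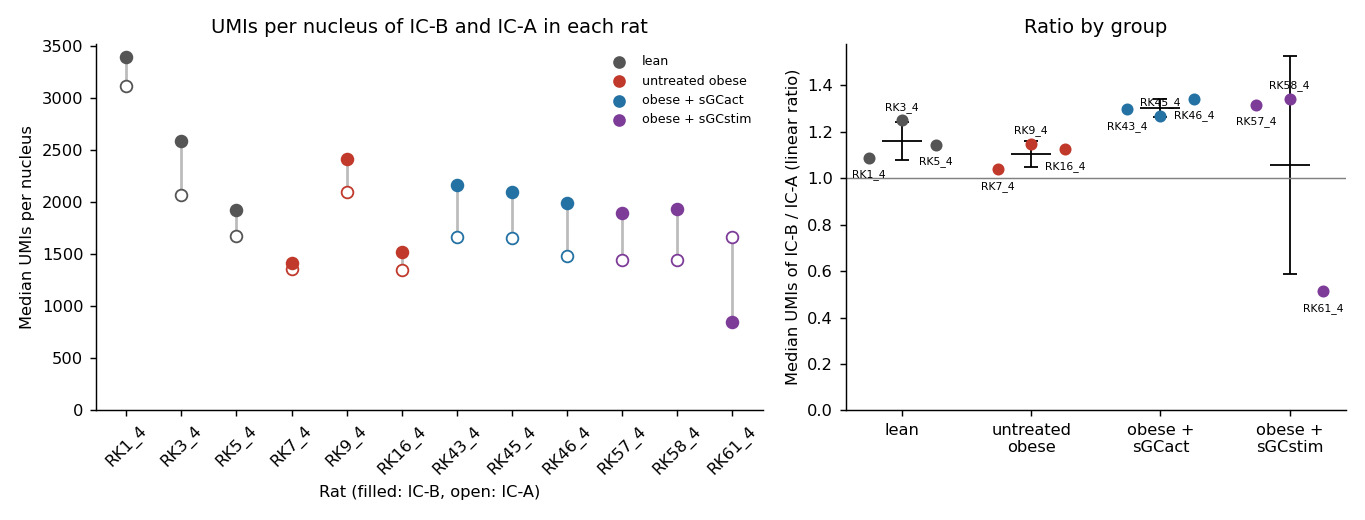
Left, median UMIs per nucleus (y axis, from 0) of IC-B (filled) and IC-A (open) in each rat (x axis). Right, their linear ratio (y axis) by group, with points for rats, horizontal lines for means and bars for SD (n = 3); the sGCact rats lie between 1.27 and 1.34, the untreated obese rats between 1.04 and 1.15, and RK61_4 at 0.513.

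Median mitochondrial percentages of IC-B nuclei were near 0 in most rats. They were 0.0433%, 0.0543% and 0% in the lean rats, 0%, 0.110% and 0.449% in the untreated obese rats, 0.0611%, 0% and 0% in the sGCact rats, and 0%, 0% and 4.45% in the sGCstim rats. A median of 0% means that more IC-B nuclei of the rat lacked a mitochondrial UMI than had one. The share without any mitochondrial UMI ran from 5.80% in RK16_4 to 78.0% in RK57_4, and RK61_4 had 8.89%. On the scale of log2(percentage + 0.1), on which changes of low values are understated, the difference of untreated obese from lean rats was 0.79 (−2.01 to 3.60, limma adjusted p = 0.806). It was −0.95 for sGCact (−3.75 to 1.86, limma adjusted p = 0.926) and 0.66 for sGCstim (−2.15 to 3.47, limma adjusted p = 0.849) against untreated obese rats, −1.61 between the drugs (limma adjusted p = 0.690) and 0.70 for all obese rats (limma adjusted p = 0.759). In each of these contrasts 0% of the clusters passed. Without RK61_4 the sGCstim difference was −1.18 and that between the drugs 0.23, so the sign of both rested on this rat, and that of all obese rats was 0.0868 (limma adjusted p = 0.893).

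Mean cell-cycle scores of the IC-B nuclei of a rat were close to 0 throughout. The S and G2M scores compare the expression of genes of these phases with that of other genes in a nucleus, and across IC-B nuclei they had SDs of 0.0428 and 0.0413. Mean S scores per rat were 0.00102, 0.00251 and 0.00155 in the lean rats, −0.00247, 0.00580 and −0.00387 in the untreated obese rats, 0.00532, 0.00268 and 0.00127 in the sGCact rats, and 0.00644, 0.00466 and −0.00325 in the sGCstim rats. The groups overlapped, and RK16_4, RK61_4 and RK7_4, the rats with negative values, were also those with the lowest median UMIs per IC-B nucleus. The S score differed by −0.00187 between untreated obese and lean rats (limma adjusted p = 0.967), by 0.00327 for sGCact (limma adjusted p = 0.707) and by 0.00280 for sGCstim (limma adjusted p = 0.469) against untreated obese rats, by 0.000477 between the drugs (limma adjusted p = 0.916) and by 0.000150 for all obese against lean rats (limma adjusted p = 0.962). Of the clusters, 18.2% passed for sGCstim and 0% in the other contrasts, and the sGCstim difference in IC-B was 0.00573 without RK61_4 (limma adjusted p = 0.147). Without this rat the difference between the drugs changed sign, to −0.00245 (limma adjusted p = 0.447), and that of all obese against lean rats was 0.00113 (limma adjusted p = 0.810).

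Mean G2M scores were −0.00249, −0.00485 and −0.00554 in the lean rats, −0.00748, −0.00617 and −0.00329 in the untreated obese rats, −0.00595, −0.00793 and −0.00121 in the sGCact rats, and 0.00161, −0.00104 and 0.00419 in the sGCstim rats. All sGCstim rats were above all other rats, but RK58_4 (−0.00104) was barely above the sGCact rat RK46_4 (−0.00121). Among nuclei with 1000 to 2000 UMIs this order was lost. There RK61_4 (−0.00370) and RK58_4 (−0.000520) were below RK9_4 (0.00227) and RK1_4 (0.00631). It was also lost at up to 1% mitochondrial UMIs, with RK61_4 (−0.00821) below RK9_4 (−0.00581). Over all IC-B nuclei, the difference of sGCstim from untreated obese rats was 0.00724 (0.00149 to 0.0130), with an unadjusted p of 0.0178 and an adjusted p of 0.195 by limma and an exact permutation p of 0.1. By the test 0% of the clusters passed, and 4.55% of the clusters, which is IC-B alone, showed complete separation in this direction. Between the drugs the difference was −0.00662 (−0.0124 to −0.000870, limma adjusted p = 0.210), a separation that 22.7% of the clusters shared, and −0.00532 without RK61_4. The sGCstim difference from untreated obese rats was smaller among nuclei restricted by mitochondrial share or depth, and the cause was not tested. Among nuclei with at most 1% mitochondrial UMIs, RK57_4 scored 0.00208 and RK58_4 −0.00122, against 0.00161 and −0.00104 over all their IC-B nuclei. The mean G2M score of the IC-B nuclei of RK61_4 was 0.00937 over 1% mitochondrial UMIs and −0.00821 in the others, and the sGCstim difference was 0.00374 among nuclei with at most 1% (limma adjusted p = 0.390), 0.00364 among nuclei with 1000 to 2000 UMIs (limma adjusted p = 0.622) and 0.00594 without RK61_4 (limma adjusted p = 0.346). Untreated obese rats differed from lean rats by −0.00136 (limma adjusted p = 0.798), a contrast in which 31.8% of the clusters passed, sGCact from untreated obese rats by 0.000618 (limma adjusted p = 0.901) with 4.55% passing, and all obese from lean rats by 0.00126 (limma adjusted p = 0.696) with 4.55% passing, or 0.000828 without RK61_4.

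**Figure D5:**
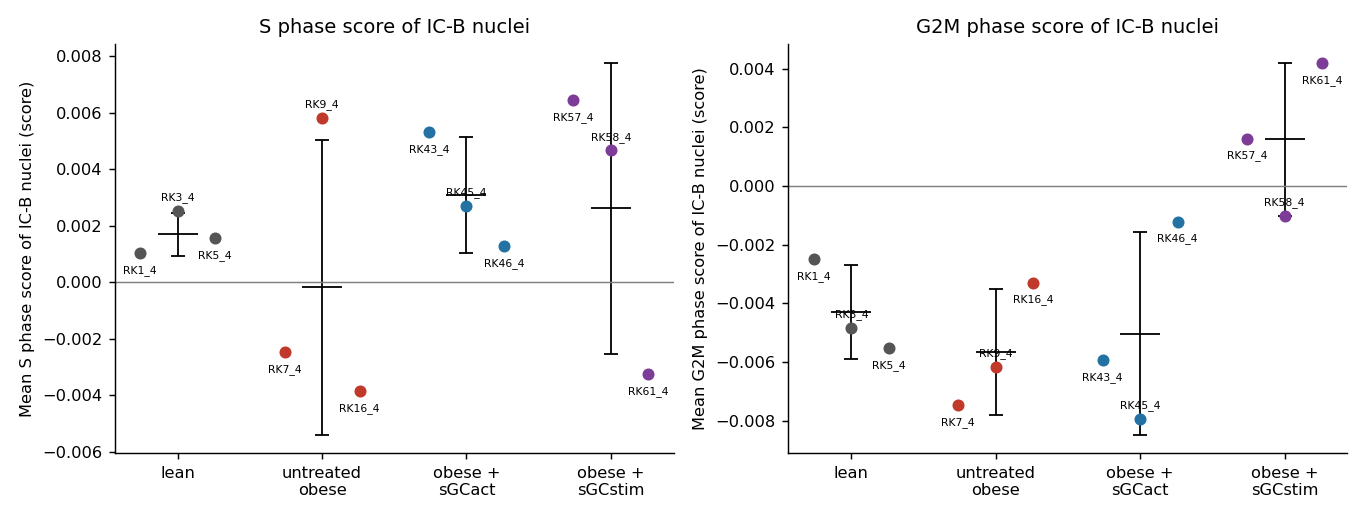
Mean S score (left) and G2M score (right) of IC-B nuclei per rat (y axes, scores without unit, horizontal line at 0) in the 4 groups (x axes), with points for rats, lines for means and bars for SD (n = 3). S scores overlap between groups, while the G2M scores of the sGCstim rats, −0.00104 to 0.00419, lie above those of all other rats, of which RK46_4 at −0.00121 is the closest.

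IC-B nuclei scored above IC-A nuclei of the same rat in both scores. The S score was higher in IC-B in 12 of 12 rats, by a median of 0.00676, and the G2M score in 11 of 12, by a median of 0.00733, RK9_4 being the exception. Among nuclei with 1000 to 2000 UMIs the S score was higher in 11 of 12 rats, RK16_4 being the exception, and the G2M score again in 11 of 12. The phase calls that the authors derived from these scores were spread almost evenly, with 25% to 33.8% of the IC-B nuclei of a rat in G1, 32.7% to 39.7% in S and 28.7% to 42.2% in G2M. No cycling is read from these calls. The mean scores per rat were near 0, which does not describe single nuclei, and whether nuclei were cycling was not tested.

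The main limma tests of IC-B numbered 30, 5 contrasts of 6 measures, of which 0 passed at an adjusted p of 0.05 and 3 had an unadjusted p under 0.05. Contrasts on the denominator chosen after seeing the data and limma fits under other settings are not among them. Of those, 1 passed, UMIs of all obese against lean rats without RK5_4. By edgeR on numbers of nuclei, 0 of 15 tests passed and 0 had an unadjusted p under 0.05.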

How the data were processed

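Nuclei of frozen kidney were sequenced with a droplet method. The submitters' processing notes name Cell Ranger 6 and rn6, and the study's methods an earlier Cell Ranger version. Per the methods, the authors included introns, corrected for ambient RNA, took out doublets and filtered nuclei by genes and mitochondrial percentage. They then merged all rats and clustered in Seurat after batch correction with Harmony. They deposited UMIs and genes per nucleus as raw counts, mitochondrial UMIs in percent, phase scores as score values, and phase, rat, group, cluster and map coordinates. All columns per nucleus were mapped (0 left unmapped). IC-B members, measures and tests were chosen with earlier results of these data known.

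Shares, medians and mean scores were computed per rat, the unit of replication. Log odds (0.5 nuclei added to the cluster, 1 to the total), log2 median UMIs, log2(median mitochondrial percentage + 0.1) and mean scores were fitted with limma 3.58.1 (R 4.3.3) over 4 groups of 3 rats (8 residual degrees of freedom) and all eligible clusters, with Benjamini-Hochberg adjustment at 0.05. Clusters within their high-level type numbered 23. Exact permutation tests were two-sided. The fits were checked on simulated data with independent normal noise, the same spread for every cluster and changes several times that spread. This checks the fitting steps and does not give the power for the differences reported here. Alternatives included edgeR 4.0.16 quasi-likelihood tests and each rat left out. IC-B, its intercalated neighbors and denominator clusters are named; others only where an IC-B value is set against them. Groups were read from the table, whose rats carry no replicate number.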

Additional observations from a re-analysis of the deposited data

How the results depend on the processing

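Of 645 repeats of the 40 results under other settings, 578 kept sign and side of the threshold, 66 changed sign and 1 passed anew. No main difference passed, so no changed sign belonged to a difference that passed. The 578 include repeats that leave an estimate as it was, and these are no check of its sign. For the share of all nuclei, sGCact minus untreated obese stayed at 0.976 without the lean rat RK1_4, which is outside the contrast. It was also 0.976 with the groups of the contrast alone. For UMIs it stayed at 0.270 with clusters of at least 20 nuclei in every rat. No paired analysis was possible because groups held different rats, identified without a replicate number, which leaves nothing to form a replicate block from. This concerns contrasts between groups, while IC-B and IC-A were compared within each rat.

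For the IC-B share of all nuclei (log odds), untreated obese minus lean was 0.0729 as a centred log-ratio, 0.306 outside the proximal tubule, 0.195 by edgeR with TMM, 0.0208 at 1000 UMIs or more, 0.0604 at up to 1% mitochondrial UMIs and 0.0700 of intercalated and DCT/CNT/PC nuclei, in place of −0.66. In the same order without edgeR, sGCstim minus untreated obese was −0.0245, −0.176, −0.399, −0.560 and −0.280. All obese minus lean was 0.210, 0.353, 0.560 (TMM), 0.144 (edgeR, total nuclei), 0.112 and 0.0352. The sGCact difference was −0.0815 of intercalated and DCT/CNT/PC nuclei, a denominator chosen after seeing the data. All obese minus lean within intercalated nuclei was −0.0148 at up to 1%.

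Relative to the median over all nuclei of the rat outside IC-B, log2 UMIs differed by 0.563 (untreated obese minus lean), −0.0378 (sGCact) and 0.310 (all obese). At up to 1%, a setting added after seeing the data for UMIs, scores and the IC-A ratio, the sGCstim difference in UMIs was 0.0182. The mitochondrial sGCstim difference was −0.102 with a pseudocount of 0.01 and −0.883 at 1000 UMIs or more. All obese minus lean was −0.00378 (S score) and −0.000444 (G2M score) as medians, −4.18e-06 and −0.000283 at up to 1%, and −0.00117 (G2M score) at 1000 to 2000 UMIs, where the S score differed by 0.000743 for untreated obese minus lean and −0.000573 between the drugs. The log2 ratio to IC-A differed by 0.0593 (1000 UMIs or more) and 0.114 (up to 1%) for sGCstim, and by 0.00375 (means), 0.0143 and 0.0276 for all obese.

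With 1 rat left out, the share of all nuclei ranged from −1.43 to 0.126 (untreated obese minus lean), −0.330 to 1.22 (sGCstim), −0.0163 to 0.883 (between drugs) and −0.440 to 0.0782 (all obese), and the share of intercalated nuclei from −0.187 to 0.0736 (sGCact) and −0.0832 to 0.404 (all obese). The share of intercalated and DCT/CNT/PC nuclei ranged from −0.0737 to 0.267 (untreated obese minus lean), −0.244 to 0.0622 (sGCact) and −0.163 to 0.147 (all obese). UMIs ranged from −0.443 to 0.149 (sGCstim) and −0.767 to −0.357 (all obese), and the mitochondrial percentage from −1.18 to 1.58 (sGCstim) and −2.52 to 0.229 (between drugs). Scores ranged from −0.00245 to 0.00239 (S, between drugs), −0.000847 to 0.00113 (S, all obese) and −0.00129 to 0.00207 (G2M, sGCact). The IC-A ratio ranged from −0.425 to 0.268 (sGCstim), −0.0282 to 0.664 (between drugs) and −0.0996 to 0.0858 (all obese). The cause of these changes was not tested.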
